A study of Mus musculus with 15 samples.

Results

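The enzymes that carry glucose to lactate were followed at the RNA level in mouse neural stem cells, in total RNA and in RNA bound to polysomes, with and without a ligand of the death receptor CD95. The listed genes were Hk2, Gpi1, Pfkp, Aldoa, Tpi1, Gapdh, Pgk1, Pgam1, Pkm and Ldha, and each was looked up by its symbol in the annotation of the array. Of these 10 genes, 8 had at least 1 probe set that the annotation lists for them alone, 16 probe sets in all, among 22626 probe sets and 12393 such genes on the array. Gapdh was listed only on 2 probe sets shared with other entries, which are given as values and left out of every count of genes, and Gpi1 was not analysed here.

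Glycolysis splits glucose into pyruvate in the cytosol and yields ATP and NADH, and lactate dehydrogenase turns pyruvate into lactate while it restores the NAD+ that the pathway needs. Hexokinase, phosphofructokinase and pyruvate kinase catalyse the irreversible steps where flux is regulated, and the enzymes between them work near equilibrium. Neural stem and progenitor cells are known for high glycolytic activity, which declines as they differentiate into neurons, and many of the genes are targets of the hypoxia-inducible factors and of MYC.

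The cells were neural stem cells of female mice of strain C57/B16, 6 weeks of age, grown as neurospheres, which are free-floating clusters of dividing cells. CD95L-T4 is a trimerised construct of the ligand of CD95 (Fas), and RNA was taken 48 h after it was added. Affymetrix arrays were made from total RNA of control cultures (n = 4), total RNA of CD95L-T4 cultures (n = 4), polysomal RNA of control cultures (n = 4) and polysomal RNA of CD95L-T4 cultures (n = 3), and the labels call the replicates biological. The labels give a column kit and total RNA as molecule for the total samples, and phenol and chloroform and polyA RNA as molecule for the polysomal samples. Fraction, extraction method and molecule therefore cannot be told apart in any polysomal against total comparison. How many animals gave a culture, and what the controls received, is not given in the sources used here.

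Values are log2 signals, compared between arrays for 1 probe set at a time, and precision is set by how many arrays a group has, since arrays give no read depth. Arrays of 1 group correlated at 0.994 to 0.998 over all probe sets, and arrays of different fractions at 0.968 to 0.978. Of the neural stem and progenitor markers, 10 of 11 measured were above the median probe set, with an average over the list of 9.51 to 10.01 log2 in the 15 arrays, and Prom1 was the exception, at the 14.1th percentile. For microglia, endothelium and fibroblasts 0 markers were above the median probe set by mean level over all arrays. Above it were 3 of 8 for neurons, 3 of 7 for astrocytes and 2 of 7 for the oligodendrocyte lineage. A difference was called at an adjusted p under 0.05 in limma, with Benjamini-Hochberg adjustment over the 22626 probe sets. Where a gene has several probe sets, the brightest on average stands for it.

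The genes are often regulated together through motifs before their start sites, so the promoters of 4 members are shown: Hk2, Pgk1 and Ldha, among the genes called lower in polysomal RNA in both kinds of culture, and Tpi1, which was called in neither. The 4 windows are examples and show no relation of the letters to the calls: Pfkp, also called in neither, held 3 matches, and the first of both Pkm windows held 0. Sequences are RefSeq windows of build GRCm38.p6, 250 bases directly before the annotated start, read 5′ to 3′ on the strand of the gene. The windows are chr6:82774455-82774704 on the minus strand for Hk2, chrX:106186850-106187099 on the plus strand for Pgk1, chr7:46845554-46845803 on the plus strand for Ldha and chr6:124814159-124814408 on the minus strand for Tpi1. Capitals mark ACGTG or GCGTG on either strand, the core letters of the hypoxia response element, where matches on both strands can overlap.
Hk2: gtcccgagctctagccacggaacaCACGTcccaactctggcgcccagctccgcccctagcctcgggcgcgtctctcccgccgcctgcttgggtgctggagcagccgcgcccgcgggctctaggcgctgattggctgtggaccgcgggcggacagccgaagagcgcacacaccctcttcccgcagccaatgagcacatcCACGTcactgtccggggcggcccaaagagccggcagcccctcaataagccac
Pgk1: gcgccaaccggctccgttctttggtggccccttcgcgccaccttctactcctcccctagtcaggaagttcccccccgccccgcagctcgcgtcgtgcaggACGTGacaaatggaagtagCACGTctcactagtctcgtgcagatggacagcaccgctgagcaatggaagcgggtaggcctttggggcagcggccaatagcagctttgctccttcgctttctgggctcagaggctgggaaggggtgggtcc
Ldha: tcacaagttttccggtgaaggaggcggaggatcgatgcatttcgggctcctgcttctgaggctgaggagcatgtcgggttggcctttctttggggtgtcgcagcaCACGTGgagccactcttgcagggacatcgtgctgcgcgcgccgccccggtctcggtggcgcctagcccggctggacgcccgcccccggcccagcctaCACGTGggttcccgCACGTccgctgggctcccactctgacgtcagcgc
Tpi1: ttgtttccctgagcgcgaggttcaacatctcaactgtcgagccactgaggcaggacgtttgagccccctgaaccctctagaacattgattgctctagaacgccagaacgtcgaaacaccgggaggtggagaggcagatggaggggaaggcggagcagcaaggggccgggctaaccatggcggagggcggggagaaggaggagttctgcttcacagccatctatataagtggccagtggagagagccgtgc

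The Pgk1 window held 2 matches to ACGTG, starting at positions -150 and -131 from the start, and the Hk2 window held 2. The Ldha window held 5, counted on both strands. The Tpi1 window held 0 matches, which says only that these letters are not in these bases. Over all 10 listed genes, 8 had a match in at least 1 of their annotated windows, 10 of 14 windows in all, where a pair of Aldoa windows overlap and share their match. The share over all 32851 promoter windows of the table was 38.6%, so a match is common, and a match here is a description of letters and not of binding.

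In control cultures polysomal RNA held less of 6 of the 8 genes than total RNA: Hk2, Aldoa, Pgk1, Pgam1, Pkm and Ldha, with log2 differences of -1.11 to -0.36. Over all genes 23.2% were called lower and 33.5% higher, and 0 of the 8 were called higher. By mean level Pfkp stood at the 31.4th and Hk2 at the 50.4th percentile of probe sets, the remaining 6 at the 94.3rd to 97.6th. The shares over all genes include dim genes and were not matched for level. The median log2 difference was -0.70 over the 8 genes and 0.10 over all 12393 genes. The other two, Pfkp and Tpi1, did not pass the test. The values are shares of the RNA put on an array, so a lower polysomal value does not measure how many ribosomes a transcript carried, and in bulk cultures fewer cells of a type and less RNA per cell cannot be told apart.

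Hexokinase 2, encoded by Hk2, phosphorylates glucose and so traps it in the cell. Its log2 values in control total RNA were 7.48, 7.37, 7.31 and 7.28, and in control polysomal RNA 6.24, 6.61, 6.19 and 6.62. Every polysomal array lay below every total array, by a mean log2 difference of -0.94 ± 0.12 (SE), or 1.93-fold (adjusted p = 1.59e-06, limma). The CD95L-T4 arrays ran likewise, at 7.46, 7.31, 7.32 and 7.44 in total RNA and 6.70, 6.24 and 6.71 in polysomal RNA, without overlap. The log2 difference there was -0.83 ± 0.12 (adjusted p = 2e-05, limma).

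Pfkp encodes the platelet-type subunit of phosphofructokinase, which commits the sugar to glycolysis. The probe set that stands for it was dim, with a mean level at the 31.4th percentile of the array. It read 5.29, 5.15, 5.01 and 4.94 log2 in control total RNA and 4.78, 5, 5.32 and 5.18 in control polysomal RNA. The ranges overlapped throughout, and the log2 difference was -0.03, with a 95% interval of -0.28 to 0.22. The second Pfkp probe set, also dim, differed by 0.02. In CD95L-T4 cultures these probe sets differed by 0.04 and -0.21, neither called.

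Aldoa encodes the aldolase that cleaves the phosphorylated hexose into triose phosphates. Its brightest probe set read 12.30, 12.38, 12.15 and 12.29 log2 in control total RNA and 11.69, 11.60, 11.87 and 11.97 in control polysomal RNA. The groups did not overlap, and the log2 difference was -0.50 ± 0.14 (adjusted p = 0.00457, limma). All 4 Aldoa probe sets were called lower in control cultures, at -0.37 to -0.59, and their names mark them as able to bind related sequences. In CD95L-T4 cultures the brightest set read 12.25, 12.29, 12.04 and 11.98 in total RNA and 12.45, 11.64 and 11.94 in polysomal RNA. There the first polysomal array was the highest of all 7 and the second the lowest, the groups overlapped, and the log2 difference of -0.13 ± 0.15 was not called (adjusted p = 0.494, limma). Without that first array the log2 difference was -0.35 and passed (adjusted p = 0.0277, limma).

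Tpi1 encodes triose phosphate isomerase, which interconverts the products of aldolase. It read 11.91, 11.80, 11.71 and 11.83 log2 in control total RNA and 11.37, 11.58, 11.70 and 11.95 in control polysomal RNA, with overlapping groups. The log2 difference was -0.16 ± 0.13 in control cultures (adjusted p = 0.303, limma) and -0.05 ± 0.14 in CD95L-T4 cultures (adjusted p = 0.781, limma). None of its 3 probe sets was called in either kind of culture, the control differences being -0.16, -0.23 and -0.06. The 95% interval of the brightest set in control cultures, -0.43 to 0.11, leaves out a drop of the size seen for Pgk1.

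Pgk1 encodes phosphoglycerate kinase, the first enzyme of the pathway to make ATP. Its values in total RNA were tight, at 12.43, 12.44, 12.45 and 12.50 log2 in control and 12.42, 12.47, 12.49 and 12.48 in CD95L-T4 cultures. In polysomal RNA they were 11.40, 11.37, 11.52 and 11.71 in control and 12.02, 11.51 and 11.59 in CD95L-T4 cultures. No polysomal array reached a total one. The log2 difference was -0.95 ± 0.10 in control (adjusted p = 2.06e-07, limma) and -0.76 ± 0.11 in CD95L-T4 cultures (adjusted p = 9.93e-06, limma). All 3 Pgk1 probe sets were called lower in both kinds of culture, at -0.71 to -0.95 in control and -0.42 to -0.76 in CD95L-T4.

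Pgam1 encodes phosphoglycerate mutase, which moves the phosphate group of phosphoglycerate. Its log2 values in control cultures were 11.23, 11.24, 11.17 and 11.13 in total and 10.74, 10.75, 10.86 and 10.96 in polysomal RNA, again without overlap. The log2 difference was -0.36 ± 0.10 (adjusted p = 0.00643, limma), the smallest of the 6 that were called. In CD95L-T4 cultures the values were 11.31, 11.27, 11.11 and 11.05 in total and 11.41, 10.81 and 11.12 in polysomal RNA, which overlapped, and the log2 difference of -0.07 ± 0.11 was not called (adjusted p = 0.634, limma).

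Pkm encodes pyruvate kinase of muscle and proliferating cells, which makes pyruvate and ATP in the last step before lactate. The array's single Pkm probe set does not tell its splice forms apart here. It read 12.43, 12.37, 12.43 and 12.57 log2 in control total RNA and 11.25, 11.22, 11.35 and 11.53 in control polysomal RNA. In CD95L-T4 cultures it read 12.45, 12.47, 12.47 and 12.48 in total and 11.64, 11.24 and 11.49 in polysomal RNA. The gap between fractions was the widest of the 8 genes in both, at -1.11 ± 0.09 log2 or 2.16-fold in control (adjusted p = 8.17e-09, limma) and -1.01 ± 0.10 or 2.02-fold in CD95L-T4 cultures (adjusted p = 1.02e-07, limma).

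Ldha encodes the lactate dehydrogenase subunit that favours lactate formation. Its log2 values were 12.23, 12.28, 12.19 and 12.24 in control total and 11.21, 11.30, 11.33 and 11.46 in control polysomal RNA. In CD95L-T4 cultures they were 12.23, 12.30, 12.21 and 12.26 in total and 11.83, 11.21 and 11.48 in polysomal RNA. The fractions did not overlap in either, with a log2 difference of -0.91 ± 0.10 in control (adjusted p = 4.23e-07, limma) and -0.74 ± 0.11 in CD95L-T4 cultures (adjusted p = 1.39e-05, limma).

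Gapdh encodes the dehydrogenase that makes the NADH of glycolysis. The bright probe set shared by Gapdh and 4 other entries, among them the pseudogene Gapdh-ps15, had a mean log2 value of 13.83 ± 0.02 (SD, n = 4) in control total and 13.11 ± 0.12 (SD, n = 4) in control polysomal RNA. Its log2 difference was -0.72 ± 0.09 in control (adjusted p = 2.24e-06, limma) and -0.55 ± 0.10 in CD95L-T4 cultures (adjusted p = 0.000117, limma). The less bright probe set, shared by Gapdh and Gapdh-ps15 and at the 61.4th percentile by mean level, differed by 0.07 and 0.27 and was not called. These probe sets thus gave unlike readings, and which transcript either reads was not tested.

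**Figure D1:**
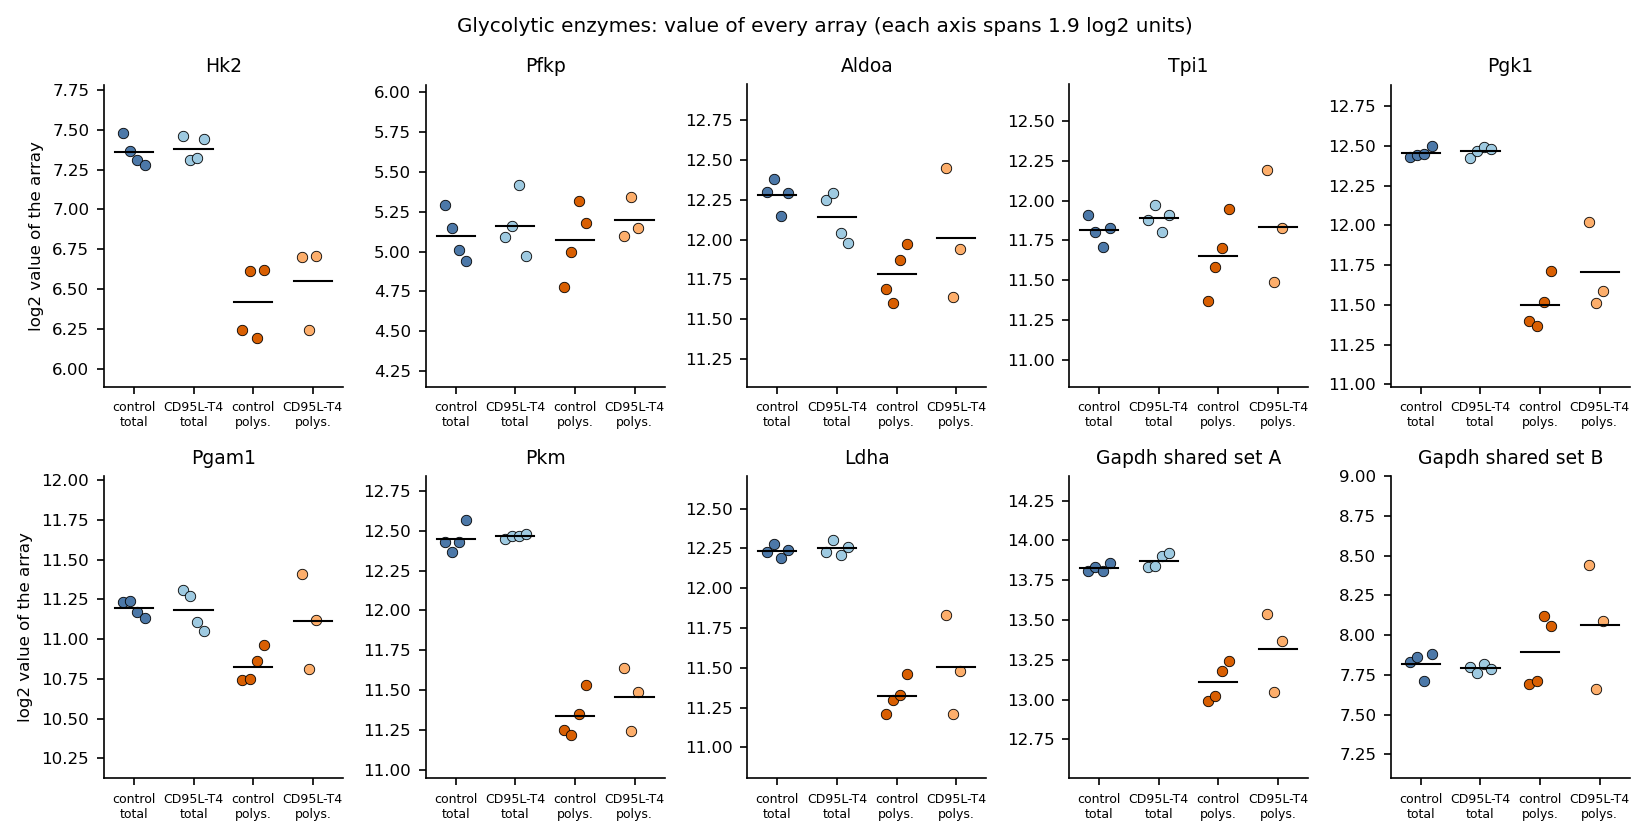
Log2 value of every array (points) for the 8 genes and the pair of probe sets that Gapdh shares with other entries, by group, with the group mean as a bar; every vertical axis spans the same number of log2 units. Hk2, Pgk1, Pkm, Ldha and the bright shared Gapdh set are lower in all polysomal than in all total arrays, whereas Pfkp and Tpi1 overlap.

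In CD95L-T4 cultures 4 of the 8 genes, Hk2, Pgk1, Pkm and Ldha, were called lower in polysomal RNA and 0 higher, where 21.8% of all genes were called lower and 29.6% higher. The median log2 difference was -0.44 over the 8 genes and 0.07 over all genes. Over probe sets, 11 of the 16 were lower in control and 6 of the 16 in CD95L-T4 cultures, and 0 were higher in either. Of all 22626 probe sets, 5959 were lower and 6745 higher in control, and 5559 and 6044 in CD95L-T4 cultures. Several of the 16 read the same gene and are not independent. All Aldoa and Pgk1 sets are among the 11, and all Pgk1 sets among the 6. The control and the CD95L-T4 count do not show that Aldoa and Pgam1 behave differently in these cultures, since the difference between the contrasts, tested as an interaction, was not called for either gene. Of all probe sets called in control cultures 53.1% were higher in polysomal RNA, and 63.3% with equal array medians, which raised all polysomal against total differences by 0.09; in CD95L-T4 cultures the shares were 52.1% and 62.1%. The 6 and 4 genes were called under every scaling tried.

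The control probe sets used to gauge RNA integrity read differently in the fractions. The Affymetrix control probe sets for the 3′ and the 5′ end of Gapdh differed by -0.31 to -0.23 log2 in the 8 total arrays and by -0.05 to 0.22 in the 7 polysomal arrays, without overlap. For beta-actin the difference ran from 0.28 to 0.57 in total and from 0.59 to 1.03 in polysomal arrays. Extraction and molecule also differed between the fractions, and the part of this shift in the fraction differences of the 8 genes was not tested. The Gapdh control sets themselves read 13.67 in total and 12.96 in polysomal RNA at the 3′ end, and 13.95 and 12.95 at the 5′ end, in control cultures (mean log2, n = 4 each, no test made).

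**Figure D2:**
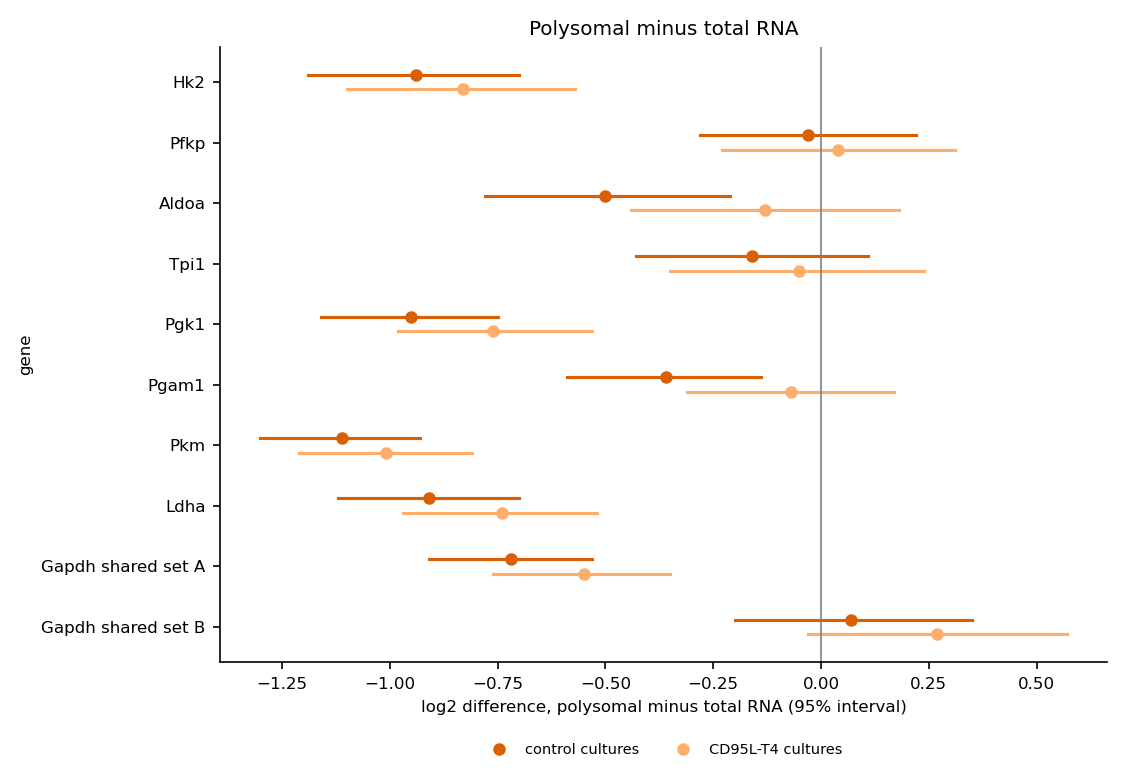
Polysomal minus total RNA for each gene (horizontal axis, log2 difference with its 95% interval) in control and in CD95L-T4 cultures. In control cultures the intervals of Pkm, Pgk1, Hk2, Ldha, Aldoa and Pgam1 lie below 0, from -1.11 for Pkm to -0.36 for Pgam1; those of Tpi1 and Pfkp include 0.

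The genes did not shift by the same amount. Within each array the log2 value of 1 gene was taken from that of another, and the result compared between polysomal and total arrays with a two-sided exact permutation test, adjusted over the 28 pairs. In control cultures 19 of 28 pairs passed (adjusted p = 0.0421, exact test, where 0.0286 is the smallest p that 4 against 4 arrays allow). In CD95L-T4 cultures 18 of 28 passed (adjusted p = 0.0445, exact test, with the same smallest p). Pairs with the dim Pfkp, which was not shown to be above background, made up 5 and 4 of these, and 14 of the 21 pairs without it passed in either kind of culture. The drop of Pkm exceeded that of Tpi1 by 0.95 log2 and that of Pgk1 by 0.16 in control cultures, and by 0.96 and 0.25 in CD95L-T4 cultures, and all of these passed. Hk2, Pgk1 and Ldha were not separated from each other in either kind of culture: the control differences were 0.01 for Hk2 against Pgk1, -0.04 for Hk2 against Ldha and -0.05 for Pgk1 against Ldha. By size of the control difference the order was Pkm, Pgk1, Hk2, Ldha, Aldoa, Pgam1, Tpi1 and Pfkp. Among neighbours in that order only Pkm with Pgk1 and Ldha with Aldoa passed, at 0.16 and 0.41 log2, and Pkm was not separated from Hk2 (0.17, adjusted p = 0.384, exact permutation test). Such ratios show unequal change of probe sets and not which gene stayed constant.

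CD95L-T4 left the 8 genes close to control in total RNA. The log2 differences ran from -0.14 for Aldoa to 0.08 for Tpi1, with a median of 0.02 over the 8 genes and 0.01 over all genes. None of the 8 was called (adjusted p = 0.997 for each, limma), as was true of 0% of all genes, and 0 of the 8 had an unadjusted p under 0.05, against 3.44% of all genes. The 95% intervals of all 8 lay within a 1.5-fold change in either direction. Pkm gives the scale of it, at 12.45 ± 0.08 log2 in control and 12.47 ± 0.01 in CD95L-T4 total RNA (SD, n = 4 each). The bright shared Gapdh set differed by 0.04.

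In polysomal RNA all 8 genes had a mean above control after CD95L-T4, by 0.12 to 0.29 log2, and none passed the test. The share of all genes with a difference above 0 was 50.8%, but the genes are not independent. Those other than Pfkp went up and down together from array to array, Hk2 less closely. The median was 0.18 over the 8 genes and 0 over all genes. Again 0% of all genes were called, and 9.49% had an unadjusted p under 0.05. Among the 8 that was 1 gene, Pgam1, at 0.29 ± 0.11 log2 (unadjusted p = 0.0216, adjusted p = 0.492, limma). Aldoa differed by 0.23, Pgk1 by 0.21, Tpi1 by 0.19 and Ldha by 0.18. Hk2 differed by 0.14, Pfkp by 0.13 (-0.04 on its second probe set) and Pkm by 0.12. The 95% intervals of all 8 lay within a 1.5-fold change, but they rest on a spread pooled over all groups. The median SD of the 8 genes was 0.29 in CD95L-T4 polysomal and 0.07 in CD95L-T4 total RNA, so these polysomal intervals can be too narrow. The groups overlapped for every gene.

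These differences depended on single CD95L-T4 polysomal arrays. Without the second, Pgam1 rose by 0.44 ± 0.10 log2 (adjusted p = 0.0217, limma) and Ldha by 0.33 ± 0.09 (adjusted p = 0.0496, limma), while the count over all probe sets went from 0 to 1386. Without the first, the differences of the 8 genes ran from 0.01 to 0.17 and none was called. Those fits keep 2 CD95L-T4 polysomal arrays, whose spread is pooled with that of the other groups.

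The effect of CD95L-T4 on polysomal RNA minus its effect on total RNA, the interaction, was above 0 for all 8 genes, from 0.06 to 0.37 log2, and none was called (adjusted p = 0.897 to 0.966, limma). Under some of the processing alternatives the values of Pfkp and Tpi1 turned below 0, to -0.08 and -0.07. It was called for 0% of all genes, and 3.99% had an unadjusted p under 0.05, against 0 of the 8. Aldoa had the largest value, 0.37 ± 0.20, with a 95% interval of -0.05 to 0.79, and Pgam1 had 0.29 ± 0.15. The intervals of 6 of the 8 genes lay within a 1.5-fold and those of all 8 within a 2-fold change. They rest on the same pooled spread and can be too narrow for the same reason. The interaction shares its polysomal arrays with the comparison before it and is no second source for the sign.

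**Figure D3:**
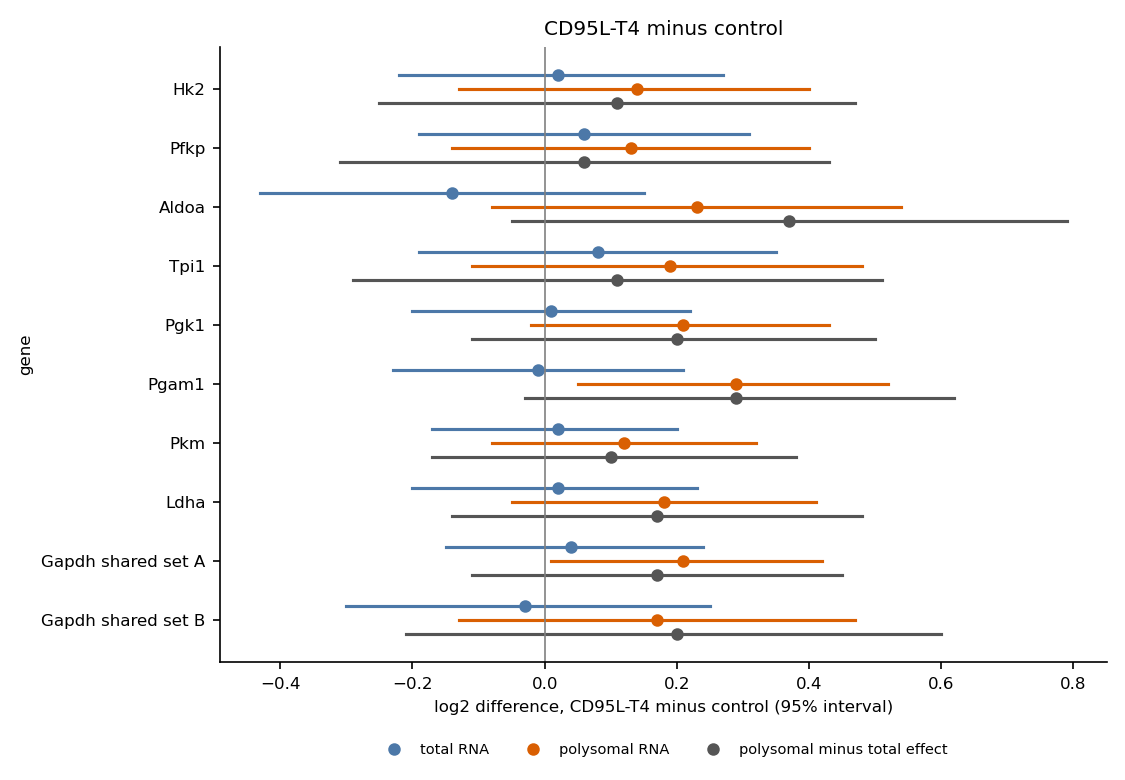
CD95L-T4 minus control for each gene (horizontal axis, log2 difference with its 95% interval) in total RNA, in polysomal RNA, and the difference between both effects. The total RNA points lie between -0.14 and 0.08, the polysomal points of the 8 genes between 0.12 and 0.29, and the Pgam1 and bright shared Gapdh intervals in polysomal RNA lie above 0 before adjustment.

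From array to array the genes other than Pfkp kept together in polysomal RNA, Hk2 less closely, and not in total RNA. Hk2 differed from its control mean by 0.20 in control polysomal array 2 and by -0.22 in array 3. The average of the 8, as a log2 difference from the control mean of the same fraction, was 0.43 in CD95L-T4 polysomal array 1, -0.05 in array 2 and 0.18 in array 3. In the control polysomal arrays it was -0.15, -0.06, 0.03 and 0.18. In the 8 total arrays it stayed between -0.06 and 0.05. In CD95L-T4 polysomal array 1, 7 of the 8 genes were above all 4 control arrays, Pfkp being the exception. In array 2 only 1 was, the dim Pfkp, at 5.34 log2 against a highest control value of 5.32. In array 3 it was 3 genes. The share of all genes above all 4 control arrays was not counted, and 47.4% of all genes were above the control mean in array 1. The genes above all controls in array 1 largely moved together, so that count does not stand for 7 separate results. The third CD95L-T4 array lay at the level of the highest control array.

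As a description over arrays that share processing and scaling, the 28 pairs of genes had a median Pearson correlation of 0.91 over the 7 polysomal arrays and 0.04 over the 8 total arrays, after the group mean was taken from each value. Without Pfkp the 21 pairs ran from 0.46 to 0.99 in polysomal RNA and from -0.75 to 0.87 in total RNA. The closest pair over all 15 arrays was Aldoa with Pgam1 at 0.96, and Pfkp did not exceed 0.11 with any other gene. The standard deviation of the averaged deviation was 0.19 log2 in polysomal and 0.04 in total arrays. The median SD of a single gene within a group was 0.29 for the 8 genes against 0.15 for all genes in CD95L-T4 polysomal RNA, 0.16 against 0.11 in control polysomal RNA, 0.07 against 0.12 in CD95L-T4 total RNA and 0.08 against 0.09 in control total RNA. The 8 genes thus varied more than the middle gene in polysomal RNA and no more than it in total RNA, a comparison made with no test.

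**Figure D4:**
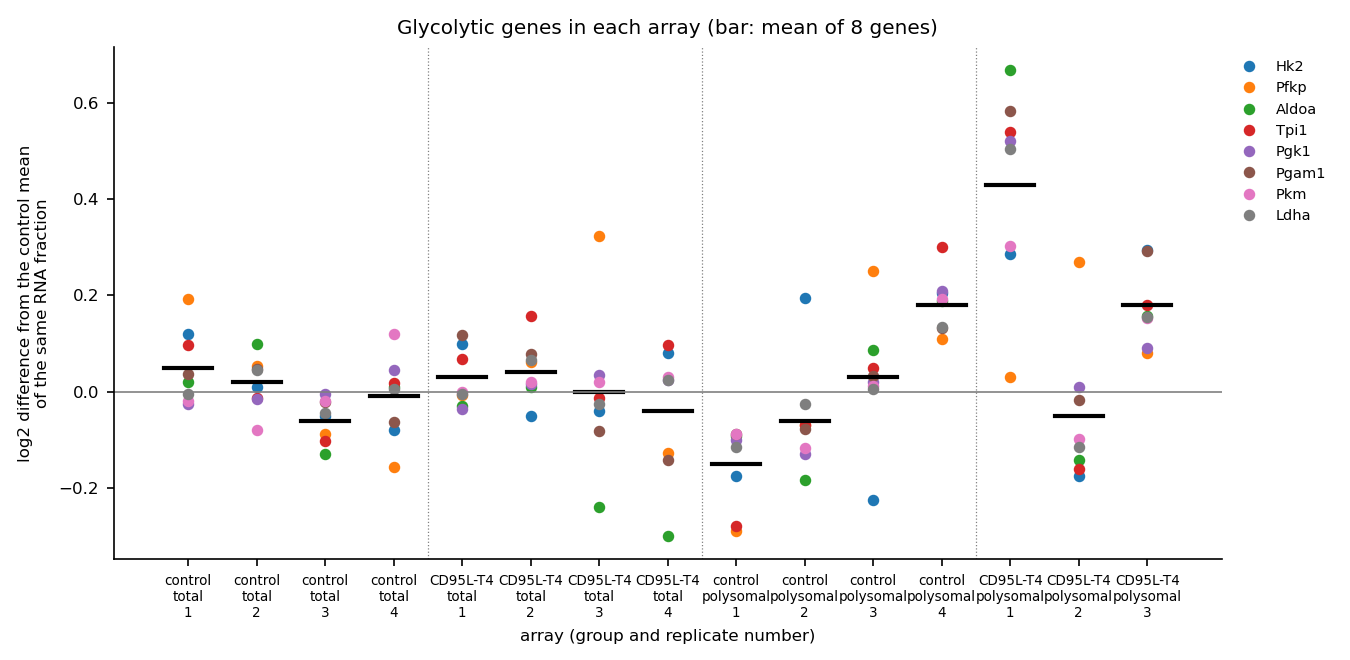
Log2 difference of each gene (coloured points) from the control mean of the same RNA fraction in each array, with the mean of the 8 genes as a bar. CD95L-T4 polysomal array 1 stands highest at 0.43, control polysomal arrays spread from -0.15 to 0.18, and total arrays stay between -0.06 and 0.05.

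Measures of the arrays themselves also differed among the polysomal arrays. The spiked poly-A controls averaged 8.31, 10.01 and 8.45 log2 in CD95L-T4 polysomal arrays 1, 2 and 3, and 8.56 to 9.17 in the control polysomal arrays. The array with the lowest glycolytic average of the CD95L-T4 polysomal group was the one with the highest poly-A controls. In the control polysomal group these were different arrays. The highest poly-A controls, 9.17 in array 3, went with a glycolytic average of 0.03. The lowest average, -0.15 in array 1, went with 9.04. The 3′ to 5′ difference of beta-actin was 0.59, 0.68 and 1.03 in the same 3 arrays, and 0.74 to 0.81 in the control polysomal arrays. The median over all genes was within 0.02 log2 of the control mean in every polysomal array. Neural stem and progenitor markers averaged 9.51 to 9.77 in CD95L-T4 and 9.51 to 9.61 in control polysomal arrays. The part of any of these in the shared movement was not tested.

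The genes outside the 8 whose deviations over the 15 arrays were most like the glycolytic average were Cryl1 at a Pearson correlation of 0.984, Sirt2 at 0.984, Psme1 at 0.977, Blvrb at 0.976 and Ccs at 0.972. Cryl1 encodes a lambda crystallin related dehydrogenase, Sirt2 an NAD+-dependent deacetylase, Psme1 a subunit of the proteasome activator PA28, Blvrb a biliverdin reductase and Ccs the copper chaperone of superoxide dismutase. Among 12385 genes 146, or 1.18%, had a correlation above 0.9. Cryl1 read 7.85, 6.77 and 7.18 log2 in CD95L-T4 polysomal arrays 1, 2 and 3 and 6.58, 6.78, 6.92 and 7.18 in the control polysomal arrays. None of these 5 genes was called between CD95L-T4 and control in either fraction. In contrast to the glycolytic genes, none was called lower in polysomal RNA: Sirt2 was called higher in control cultures at 0.35 ± 0.09 log2 (adjusted p = 0.00273, limma), and Cryl1, at 0.22, was not called there. In CD95L-T4 cultures all 5 were called higher in polysomal RNA, by 0.40 to 0.59 log2. Among the other genes of glucose metabolism, Sdhb, Ldhb, Taldo1 and Aldoc had the highest correlations, with ranks 10, 24, 28 and 57.

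The other genes of glucose metabolism were taken from lists. Of 14 measured isoenzymes and enolases, 4 were lower and 1 higher in polysomal RNA of control cultures, with a median log2 difference of -0.05. The shares over all genes there were 23.2% lower and 33.5% higher. Hk1, the housekeeping hexokinase, differed by -1.04 ± 0.08 (adjusted p = 9.89e-09, limma), Pfkm, the muscle-type phosphofructokinase subunit, by -0.81 and Aldoc, the brain-type aldolase, by -0.64. Bpgm, the bisphosphoglycerate mutase, was higher by 1.47. In CD95L-T4 cultures 4 were lower and 2 higher, against 21.8% and 29.6% of all genes. Among them were Pfkl, the liver-type subunit, at -0.52 and Hkdc1 at 0.35. Hkdc1 had a mean level of 5.69 log2 and was not shown to be above background. The phosphofructokinase subunits Pfkm and Pfkl were thus called lower in cultures where Pfkp was not called, though the difference between these genes was not tested.

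Of 13 measured glucose and lactate transporters, 4 were lower and 1 higher in control polysomal RNA, and 6 and 1 in CD95L-T4 cultures. Over all genes the shares called lower were 23.2% and 21.8%, and those called higher 33.5% and 29.6%. The lactate transporter Slc16a1 (MCT1) differed by -1.57 ± 0.11 log2, its chaperone Bsg (basigin) by -1.43 and the glucose transporter Slc2a1 (GLUT1) by -0.63 in control cultures, and by -1.47, -1.40 and -0.62 in CD95L-T4 cultures. The only transporter called higher was Slc16a8, by 0.29 in control and 0.38 in CD95L-T4 cultures. It was dim, at a mean level of 5.37 log2, and was not shown to be above background.

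In the list of PFK2 enzymes and pyruvate dehydrogenase, 5 of 11 measured genes were lower and 1 higher in both kinds of culture. The PFK2 genes measured, Pfkfb2 and Pfkfb3, were called in neither. Of all genes 23.2% were lower and 33.5% higher in control cultures, and 21.8% and 29.6% in CD95L-T4 cultures. Dld, a subunit shared by the mitochondrial dehydrogenases, differed by -1.48 in control cultures, Pdha1 by -0.96 and Dlat by -0.83, and Mpc1, a subunit of the mitochondrial pyruvate carrier, was higher by 1.42. In the citric acid cycle 15 of 18 were lower and 2 higher in control cultures, 14 and 2 in CD95L-T4 cultures. The median there was -0.71, near the -0.70 of the glycolytic genes. Sdha differed by -2.03 ± 0.06 (adjusted p = 1.36e-12, limma), Ogdh by -1.66 and Cs, citrate synthase, by -1.32. The membrane anchors of succinate dehydrogenase went the other way, Sdhc at 0.47 and Sdhd at 0.45.

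Of 20 measured genes of the pentose phosphate pathway and gluconeogenesis, 12 were lower and 5 higher in control cultures, 10 and 5 in CD95L-T4 cultures. The shares over all genes were 23.2% lower and 33.5% higher in control cultures, and 21.8% and 29.6% in CD95L-T4 cultures. Gpd2, the mitochondrial glycerol phosphate dehydrogenase, differed by -1.50, Got2 by -1.37 and Tkt, transketolase, by -0.97. Pgls was higher by 0.87, Rpia by 0.66 and Pck1 by 0.65 in control cultures. Pck1 was dim, at a mean level of 3.14 log2 against 10.97 for Pgls, and was not shown to be above background. In CD95L-T4 cultures Pgd differed by -0.78 and Fbp1 by 0.47.

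Of 27 measured genes of the hypoxia list, 11 were higher and 7 lower in either kind of culture, with medians of 0.16 and 0.12 log2. Over all genes 33.5% were higher and 23.2% lower in control cultures with a median of 0.10. In CD95L-T4 cultures it was 29.6% and 21.8% with a median of 0.07. The medians of the list were thus close to those of all genes. Higd1a was higher by 1.41, the oxygen sensor Egln2 by 1.01 and the lipid droplet protein Hilpda by 0.95 in control cultures. P4ha1 and Plod2, collagen hydroxylases of the endoplasmic reticulum, differed by -1.25 and -1.24, and Tfrc, the transferrin receptor, by -1.24. Ddit4 was higher by 2.11 ± 0.41 in CD95L-T4 cultures (adjusted p = 0.000319, limma), where its total values were 8.51, 7.02, 7.05 and 7.12 and its polysomal values 8.86, 9.86 and 9.88. Of 10 PKM splicing factors and MYC partners 4 were higher and 3 lower in either kind of culture. Their medians were 0.15 in control and 0.11 in CD95L-T4 cultures, again near those of all genes. Hnrnpa2b1 differed by -1.05 in control and -0.74 in CD95L-T4 cultures, Ptbp1 by -0.30 and -0.31, Hnrnpa1 by 0.47 and 0.34. Mlxip differed by -0.27 and Txnip by 0.38 in control cultures, Srsf3 by 0.37 in CD95L-T4 cultures. Max was higher by 1.07 and 1.92 on a probe set whose CD95L-T4 polysomal arrays read 7.08, 8 and 9.01 log2.

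**Figure D5:**
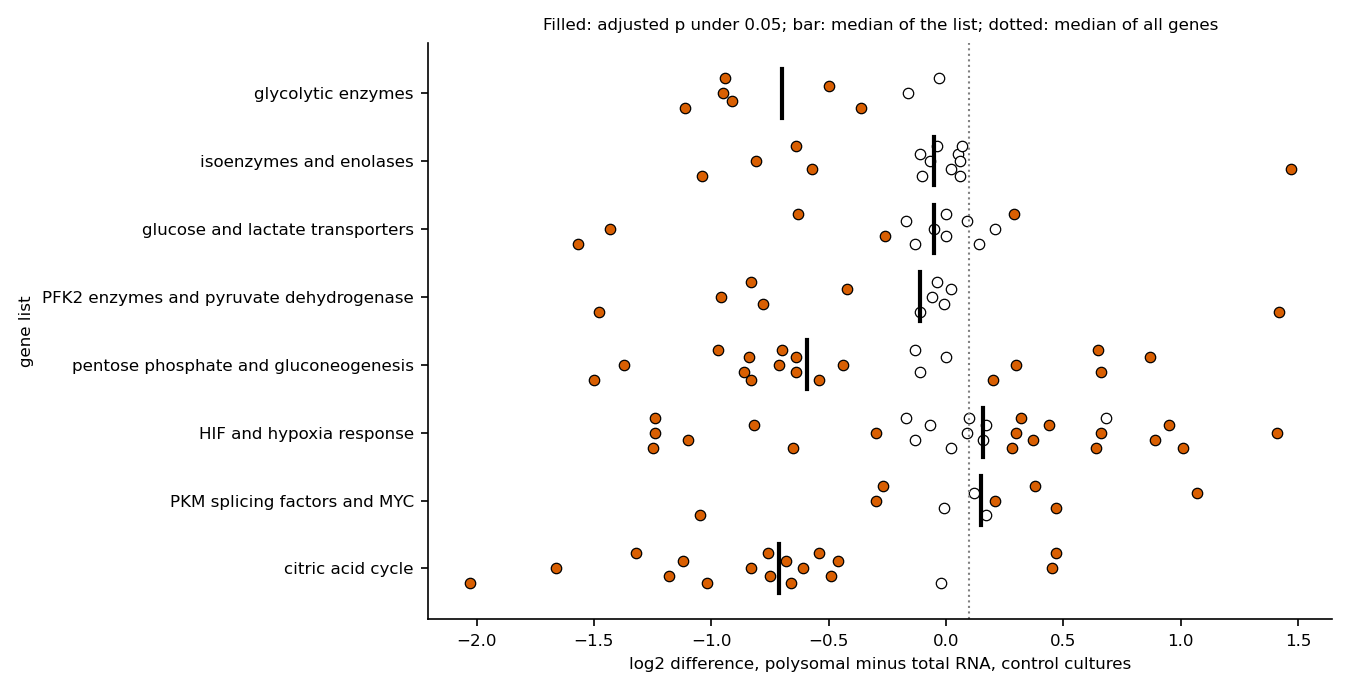
Log2 difference, polysomal minus total RNA in control cultures, of each measured gene (points; filled where adjusted p is under 0.05) by gene list, with the list's median as a bar and the median of all genes, 0.10, as a dotted line. Medians run from -0.71 for the citric acid cycle and -0.70 for the glycolytic enzymes to 0.16 for the hypoxia list.

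None of the genes in these lists was called between CD95L-T4 and control in total RNA, in polysomal RNA or in the interaction (limma). The smallest unadjusted p in polysomal RNA was that of Hkdc1, a hexokinase-like gene, at 0.41 ± 0.10 log2 (unadjusted p = 0.00111, adjusted p = 0.466, limma). Of 14 isoenzymes 3 had an unadjusted p under 0.05 in polysomal RNA, among them Gapdhs at 0.30, against 9.49% of all genes. Of 13 transporters 0 did, the leading value being Slc2a2 at 0.28. Taldo1 differed by 0.40 and Pck1 by -0.38, Suclg1 by 0.34 and Idh2 by 0.22, Mpc1 by -0.24 and Pdha1 by 0.15. Hnrnpa2b1 differed by 0.32 and Max by 0.88, Adm by -0.23 and Epas1 by -0.21, and Slc2a4 by -0.16. Of these, Pck1 was dim, at a mean level of 3.14 log2, as was Slc2a2 at 3.42. In total RNA the transporter Slc2a3 (GLUT3) differed by 0.30 (unadjusted p = 0.0134), Pfkfb2 by 0.29, Mdh1 by -0.26, Hmox1 by -0.24 and Mxi1 by -0.21. There Hnrnpa1 differed by 0.20, Slc16a3 by 0.18, Fbp2 by 0.18, Hk1 by 0.15, Pgk2 by 0.13, Mpc1 by -0.14, Srsf3 by -0.10, Ogdh by -0.07 and Sucla2 by -0.06. In the interaction Ddit4 differed by 1.43 (unadjusted p = 0.0216), Mdh1 by 0.40, Taldo1 by 0.42, Suclg1 by 0.35 and Hmox1 by 0.34, each with an adjusted p of 0.897 in limma. The other genes with the smallest p of their list there were Max at 0.85, Hnrnpa2b1 at 0.31, Mdh2 at 0.30, Hkdc1 at 0.29, Gapdhs at 0.28, Pdhb at 0.08, Slc2a4 at -0.20, Slc2a3 at -0.27 and Pfkfb2 at -0.29.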

How the data were processed

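RNA of neural stem cell cultures was measured on 15 Affymetrix mouse arrays. The deposited values are on a log2 scale and had been scaled between arrays by the authors, judged from nearly equal array medians; how is not given in the sources used here. All columns belonged to mapped samples. AFFX controls (64) were left out of the tests, and symbols were updated through gene identifiers for 12369 of 12393 genes. A model with 1 mean for each group was fitted to all 15 arrays in limma 3.58.1 (R 4.3.3), with moderated variances and two-sided tests. Errors after ± are moderated standard errors unless marked SD. The steps were tested on simulated data.

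The members and lists were chosen with earlier results of these data known. All listed enzymes were described. From each other list the text names, per fraction comparison, up to 3 largest rises and 3 largest falls among called genes whose groups did not overlap, and per CD95L-T4 comparison the 2 genes with the smallest p. It adds the 5 genes most like the members, and the total and polysomal values of Ddit4 and Max were added after their spread was seen. Promoter letters come from RefSeq, and all 10 symbols had a window. Alternatives were other scalings, filters on dim probe sets, other variance settings, array weights, a replicate block, a minimum size of 0.5 log2, averaging a gene's probe sets, and omitting each array in turn.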

Additional observations from a re-analysis of the deposited data

How the results depend on the processing

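Of the values of single genes under the alternatives, 0 reversed a call. A test against a minimum log2 change of 0.5 lowered the count over all probe sets from 12704 to 4356 in the control fraction comparison and from 11603 to 3789 in the CD95L-T4 one, and the glycolytic genes called in the latter from 4 to 2 (Hk2 and Pkm); Aldoa and Pgam1 in control and Pgk1 and Ldha in CD95L-T4 cultures lost their call, since that test asks for a larger change. When each array was left out in turn, the glycolytic genes called ranged from 6 to 6 in the control and 4 to 5 in the CD95L-T4 fraction comparison, from 0 to 2 between CD95L-T4 and control in polysomal RNA, and from 0 to 0 in total RNA and in the interaction. Over all probe sets the polysomal count ranged from 0 to 1386 and the interaction from 0 to 2, and both upper values came without CD95L-T4 polysomal replicate 2; the cause was not tested. Other array scalings, filters on dim probe sets, array weights, a trended variance, fitting only the compared groups and averaging probe sets moved no count of glycolytic genes by over 1.5 times. In total RNA 17 of 151 values changed sign while called neither in the main fit nor under that alternative. In the CD95L-T4 fraction comparison 11 of 151 did.

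The labels do not say whether replicate numbers pair the samples. Same-numbered arrays had correlations of deviations between -0.234 and 0.197. These were not compared with differently numbered arrays, so they do not settle whether samples were paired. With a replicate block over all arrays the glycolytic genes called were 6 and 4 in the fraction comparisons and 0 in the others, and the counts over all probe sets were 12731 and 11597, so the block changed no call of these genes. The 3 CD95L-T4 polysomal arrays limit the precision of every comparison they enter.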
